A study of Mus musculus with 4 samples.

Results

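Ceruloplasmin and 8 other genes of iron handling were followed in MPC11, a mouse plasmacytoma line, with and without a hairpin against the elongation factor gene Ell2. They were taken from the gene count tables by symbol: Cp, Hmox1, Tfrc, Fth1, Ftl1, Slc11a2, Slc40a1, Ireb2 and Aco1, 9 of 22722 genes counted, and all 9 were found. Cp was chosen by its p in the comparison of Ell2-KD with shGFP, among the smallest toward lower levels, and the others are iron genes proposed beside it with earlier results of these data known. Their differences between the groups are therefore given as a description, and no support is drawn from them. The 2 groups were shGFP, MPC11 cells transduced with pLKO.1-shGFP (a lentiviral hairpin against green fluorescent protein, which mouse cells lack), and Ell2-KD, MPC11 cells transduced with pLKO.1-shELL2-1C7 (a single hairpin against Ell2), with 2 libraries each. Both groups were exposed to virus and polybrene, had the virus removed after 18 h, were selected in puromycin for 72 h and were expanded for another 72 h before RNA was taken. Replicates here are biological according to their labels, which do not say whether each was transduced separately. The errors below therefore measure the spread between these samples, and part of it may be technical.

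Cells take up iron bound to transferrin through the transferrin receptor (Tfrc), and the divalent metal transporter (Slc11a2) carries it out of the endosome. Iron that is not used is stored in ferritin, a shell of heavy (Fth1) and light (Ftl1) chains, or leaves the cell through ferroportin (Slc40a1), helped by ferroxidases such as ceruloplasmin (Cp), a copper protein that the liver secretes into plasma. Haem oxygenase 1 (Hmox1) releases iron from haem. When iron is scarce, the iron regulatory proteins Aco1 and Ireb2 bind hairpins called iron-responsive elements, which blocks translation when the hairpin lies in a 5′ UTR and stabilises the transcript when it lies in the 3′ UTR of Tfrc.

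The libraries held 3496471 to 13914488 counts, the deepest and the shallowest both being Ell2-KD. Ell2 had 7864 and 5019 counts in the shGFP libraries and 1238 and 394 in the Ell2-KD libraries, so the targeted gene was low where the labels say it should be. The defining plasma cell markers were present: 7 of 7 were counted, and together they made up 20282 and 15394 CPM (counts scaled to a fixed library total) in shGFP and 16395 and 12737 in Ell2-KD, most of it from Igj and Xbp1. Within that list Tnfrsf17, a plasma cell survival receptor, had 159 and 126 counts in shGFP and 18 and 1 in Ell2-KD (log2 change -4.56 ± 0.81, SE; edgeR adjusted p = 0.183), and Pou2af1 and Sdc1 had log2 changes of -0.89 and -0.79. The 7 B cell markers summed to 400.3 and 357 CPM in shGFP and 861 and 933 in Ell2-KD, nearly all from Ms4a1, and the part of these plasma and B cell markers in the differences below was not tested. RNA was taken from whole cultures, so fewer cells of a type and less RNA per cell cannot be told apart.

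The members differ in whether their transcripts carry an iron-responsive element, and the hairpins are shown here because they divide the members by the regulation described above. In GENCODE M21 transcripts (build GRCm38), the transcript strand was searched for a C, then 5 bases of stem, then the loop CAGTGN, then 5 bases able to pair with the first 5 at 4 or more positions (G with T allowed). The 8 distinct hairpins found are printed 5′ to 3′ with the loop in capitals:
Fth1 5′ UTR: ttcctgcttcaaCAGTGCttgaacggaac
Ftl1 5′ UTR: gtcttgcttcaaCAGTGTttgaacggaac
Slc40a1 5′ UTR: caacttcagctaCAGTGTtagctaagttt
Slc11a2 3′ UTR: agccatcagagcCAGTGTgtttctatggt
Tfrc 3′ UTR, the first: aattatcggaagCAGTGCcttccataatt
Tfrc 3′ UTR, the second: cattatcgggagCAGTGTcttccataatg
Tfrc 3′ UTR, the third: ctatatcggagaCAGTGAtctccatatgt
Tfrc 3′ UTR, the fourth: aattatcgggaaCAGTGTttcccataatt
In GRCm38 the Fth1 hairpin lies at chr19:9982732-9982760 on the plus strand, that of Ftl1 at chr7:45459779-45459807 on the minus strand, that of Slc40a1 at chr1:45925465-45925493 on the minus strand and that of Slc11a2 at chr15:100395153-100395181 on the minus strand. The 4 Tfrc hairpins lie on the plus strand at chr16:32631219-32631247, chr16:32631598-32631626, chr16:32631663-32631691 and chr16:32631710-32631738. All 5 stem positions could pair in each of them except that of Slc11a2, where 4 could. A match was present in the 5′ UTR of 0.996% of 20580 genes and in the 3′ UTR of 4.16% of 20978 genes, over UTRs of any length. So 3 members carried the hairpin in the 5′ UTR and 2 in the 3′ UTR, while these letters were not found in the annotated UTRs of Cp, Hmox1, Aco1 or Ireb2. The Slc11a2 hairpin was in 1 of 6 protein-coding transcripts of that gene, that of Fth1 in 4 of 5, that of Ftl1 in 1 of 2. That of Slc40a1 was in 1 of 4, and each Tfrc hairpin in 1 of 3. Counts per gene do not separate these transcripts.

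Fth1 was the most abundant member in every library and Slc40a1 was close to undetected. The order of levels was read from normalised CPM per kilobase of annotated exon, so that genes of different length can be compared. Averaged over the 4 libraries, Fth1 stood at 1765 ± 807 CPM per kb (SD, n = 4), Tfrc at 219.9 ± 35.4, Cp at 123 ± 50.8 and Ireb2 at 70.5 ± 15.8. Ftl1 followed at 32.5 ± 8.39, Aco1 at 19.2 ± 1.81, Slc11a2 at 7.52 ± 1.19, Hmox1 at 4.88 ± 5.02 and Slc40a1 at 0.0594 ± 0.0799. The place of Ftl1 is uncertain, because other genes match its sequence and how such reads were counted is not given, as described below. The ranges over the 4 libraries overlapped for 2 pairs of neighbours in this order, Cp with Ireb2 and Slc11a2 with Hmox1, and were apart in point values for the others. Hmox1 and Slc40a1 cannot be ordered in Ell2-KD replicate 2, where they had 1 and 2 counts, both below the 3 counts (0.858 CPM) that a count of 0 allows there. The order of Slc11a2 and Hmox1 differed between the groups: in shGFP they stood at 8.50 ± 0.595 and 9.21 ± 0.563 CPM per kb (SD, n = 2), and in Ell2-KD at 6.54 ± 0.0669 and 0.545 ± 0.507. In shGFP alone Cp (166 ± 14.6 CPM per kb, SD, n = 2) lay well above Ireb2 (63.1 ± 17.1), whereas in Ell2-KD they stood at 80.3 ± 13.9 and 77.9 ± 15.3. Of the 2 iron regulatory proteins, Ireb2 was the more abundant per kilobase in every library.

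**Figure D1:**
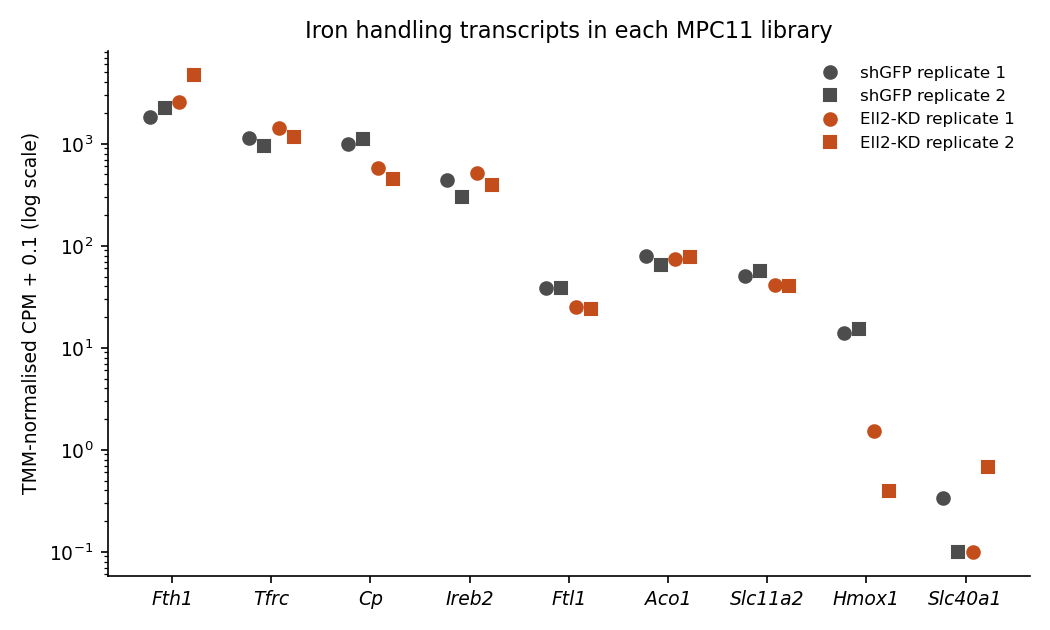
TMM-normalised CPM plus 0.1 (log axis) of the 9 iron handling genes in each of the 4 libraries, in the order of their level per kilobase; grey points are shGFP, orange points Ell2-KD, circles replicate 1 and squares replicate 2. Cp and Hmox1 lie lower in both Ell2-KD libraries, Fth1 higher, and Slc40a1 is at 0 in 2 libraries.

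No member had an adjusted p under 0.05 in edgeR's quasi-likelihood test, adjusted by Benjamini-Hochberg over the 11027 genes tested, where 0.0453% of genes did. Of the 9 members 8 had enough counts to be tested; Slc40a1 did not. At an unadjusted p under 0.05 there were 3 members (Cp, Hmox1 and Fth1), against 5.82% of all genes. DESeq2 called 2 of the 8, Cp and Hmox1 (adjusted p = 0.0119 and 0.0192), where it called 0.39% of all genes, and limma-voom called 0, where it called 0.0816%. Both Ell2-KD libraries lay below both shGFP libraries for 4 members (18.5% of all genes did so) and above them for 2 (17.4% did so), so the groups were apart in either direction for 6 (35.8% of all genes). The median log2 change was -0.16 over the 8 members and -0.00 over all genes tested. This comparison was in view when the members were chosen, so nothing is read from these counts.

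Cp, the ferroxidase, was about 2-fold less abundant in the depleted cells, and it was among the more abundant members in both groups. It stood at 991 and 1123 CPM in shGFP replicates 1 and 2 and at 574 and 449 CPM in Ell2-KD replicates 1 and 2. Both Ell2-KD values lay below both controls with no overlap, and the gap between the groups was wider than the spread within either. The log2 change was -1.05 ± 0.21 (SE), a 2.07-fold lower level, and its 95% interval ran from -1.51 to -0.58. It was -0.79 within replicate number 1 and -1.32 within number 2. The counts behind it were 8314 and 5660 in shGFP and 8094 and 1533 in Ell2-KD, so counting error is small here. Its call depended on the fit. Cp did not pass in the main edgeR test (adjusted p = 0.280) or with limma-voom (adjusted p = 0.0546). It passed with DESeq2 (adjusted p = 0.0119) and with the replicate number as a block (edgeR adjusted p = 0.033, where 0.254% of all genes passed). It also passed without Ell2-KD replicate 1 (1.24% of all genes passed). Here and below, a fit without an Ell2-KD library leaves 1 library in that group, so the spread comes from the shGFP libraries alone and the lone library is assumed to vary like them. It did not pass without shGFP replicate 1 (0.122% of all genes passed), shGFP replicate 2 (0.187%) or Ell2-KD replicate 2 (0.688%), nor did any member with DESeq2 size factors (0.0544%), library totals only (0.0181%), no filter (0.111%) or at least 5 CPM in 2 libraries (0.021%).

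Hepatocytes are the best known source of ceruloplasmin, and their markers were nearly absent from these libraries. Of 9 hepatocyte markers, Serpina1a had 0 counts throughout, Alb had 1 to 3 counts per library, and Apoa1 and Ttr had 0 or 1. The list summed to 7.57 and 11.8 CPM of the library total in shGFP and to 4.89 and 4.86 in Ell2-KD, most of it from Trf, which encodes transferrin. Trf itself had 60 and 54 counts in shGFP and 63 and 13 in Ell2-KD. Macrophages also make ceruloplasmin and haem oxygenase; 10 of their markers summed to between 8.98 and 14.8 CPM in the other libraries and to 36.3 CPM in Ell2-KD replicate 2, there mainly from Cd68. Lyz2, the macrophage lysozyme gene, had 1 count in shGFP replicate 1 and 0 elsewhere. The 7 erythroid markers that were counted summed to 3.604 and 3.93 CPM in shGFP and 4.89 and 10.9 in Ell2-KD, with both beta-globin genes at 0.

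In the annotation, 108 bases of Cp exon overlap an exon of Hps3, a gene of lysosome-related organelles on the opposite strand, and the strand setting of the counting is not given in the sources used here. Hps3 had 263 and 119 counts in shGFP and 530 and 82 in Ell2-KD, from 2.10% to 6.55% of the counts of Cp. It stood at 27.5 ± 5.48 CPM in shGFP and 30.8 ± 9.61 in Ell2-KD (SD, n = 2), and its log2 change of 0.17 ± 0.44 (SE) did not pass. Hps3 counts were therefore a small share of those of Cp in every library. The share was 3.16% and 2.10% in shGFP and 6.55% and 5.35% in Ell2-KD. These counts do not measure the reads within the shared bases, so the part of the overlap in the Cp level was not tested.

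The 3 genes whose profile lay nearest to that of Cp were Aldh1a2, a retinoic acid-making enzyme, H2afx, a histone variant of the DNA damage response, and Gadd45b, a stress-induced gene. The measure was the root mean square difference of centred log2 CPM over the 4 libraries, taken over 7016 genes whose mean reached 20 CPM. It came to 0.031, 0.054 and 0.069 for the 3 genes in that order. These genes were chosen for this likeness, over only 4 libraries. Their log2 changes were -1.06 ± 0.41, -1.05 ± 0.33 and -1.03 ± 0.30 (SE).

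Slc40a1, which encodes ferroportin, the only known iron exporter of mammalian cells, was at the limit of detection in both groups. It had 2 and 0 counts in shGFP and 0 and 2 in Ell2-KD. A count of 0 allows a level of up to 0.590 CPM in shGFP replicate 2 and 0.216 CPM in Ell2-KD replicate 1, taken as 3 counts of the total and covering counting error only. No difference between the groups was detectable at this depth.

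Hmox1, which opens the haem ring and frees its iron, was low in the controls and lower still in the depleted cells. It was below the floor of 3 counts only in Ell2-KD replicate 2. It stood at 13.8 and 15.1 CPM in shGFP and at 1.42 and 0.293 CPM in Ell2-KD. Both Ell2-KD values were far below both controls, and the Ell2-KD values differed from each other several-fold. The fitted log2 change was -3.87 ± 0.95 (SE), 14.6-fold lower with a 95% interval from 3.43-fold to 62.3-fold. The counts were 116 and 76 in shGFP and 20 and 1 in Ell2-KD, so the second ratio rests on 1 count. Per library total, the share was 9.70 times lower within replicate number 1 (exact 95% counting interval 5.998 to 16.5) and 52.2 times lower within number 2 (9.09 to 2089). Both intervals cover counting error only. The fitted log2 change was -5.52 without Ell2-KD replicate 1 and -3.33 without Ell2-KD replicate 2, each time from 1 Ell2-KD library. The call of Hmox1 depended on the fit. Hmox1 did not pass in the main edgeR test (adjusted p = 0.472) or with the replicate block (edgeR adjusted p = 0.170), nor with limma-voom (adjusted p = 0.463). It passed with DESeq2 (adjusted p = 0.0192, where 0.39% of all genes passed).

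**Figure D2:**
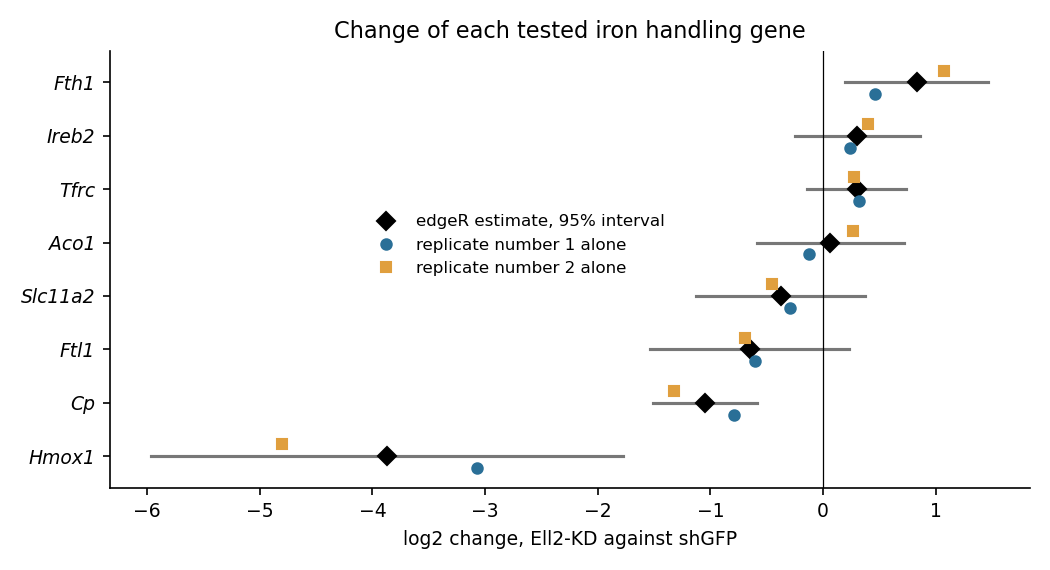
Log2 change of the 8 tested iron handling genes in Ell2-KD against shGFP: diamonds are edgeR estimates with 95% intervals (lines), circles the difference of log2 CPM within replicate number 1 and squares that within number 2. The points of Hmox1 and Cp all lie below 0 and those of Fth1 all above, while Aco1 lies on both sides.

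The ferritin chains stood on opposite sides of the controls. Fth1, the heavy chain with ferroxidase activity, stood at 1846 and 2268 CPM in shGFP and at 2541 and 4767 CPM in Ell2-KD. Both Ell2-KD values were above both controls, but the Ell2-KD libraries differed from each other by more than the group means did. The log2 change was 0.83 ± 0.28 (SE), with a 95% interval from 0.20 to 1.46, and it was 0.46 within replicate number 1 and 1.07 within number 2. It rested in large part on Ell2-KD replicate 2: without that library it was 0.31, and without Ell2-KD replicate 1 it was 1.21. The sum of the macrophage markers given above was also highest in Ell2-KD replicate 2, with 30.9 of its 36.3 CPM from Cd68. Csf1r, Emr1 and Cd14 were highest there too, at few counts. Itgam, Spic, Cd163, Marco, Lyz2 and Mrc1 were highest in other libraries. The part of these markers in the Fth1 level was not tested. Ftl1, the light chain, which promotes iron core formation, stood at 38.2 and 38.9 CPM in shGFP and at 25.0 and 24.0 CPM in Ell2-KD. The 2 libraries of each group were close to one another and the groups did not overlap. Its log2 change was -0.65 ± 0.40 (SE), with a 95% interval from -1.53 to 0.23 that includes 0.

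As a ratio within each library, there were 48.4 and 58.3 Fth1 counts per Ftl1 count in shGFP and 102 and 199 in Ell2-KD. Per kilobase of exon the ratios were 28.9 and 34.9 in shGFP and 60.9 and 119 in Ell2-KD. The ratio was higher in both Ell2-KD libraries than in both controls, and differed between the 2 Ell2-KD libraries as well. Ftl1 counts are uncertain, because 10 other annotated genes, 7 of them pseudogenes, match its coding sequence at 90% identity or more over at least 100 bases, and how reads with several matches were counted is not given in the sources used here. Of these 10 genes 1 is in the count tables, Ftl2, at 3.75% to 5.61% of the Ftl1 counts. For Fth1 there was 1 such gene, and for the other 7 members there was none. Exons of Gm10252 (355 bases, opposite strand) and Gm22133 (109 bases, same strand) also overlap Ftl1. Whether these copies and overlaps altered the Ftl1 level was not tested.

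**Figure D3:**
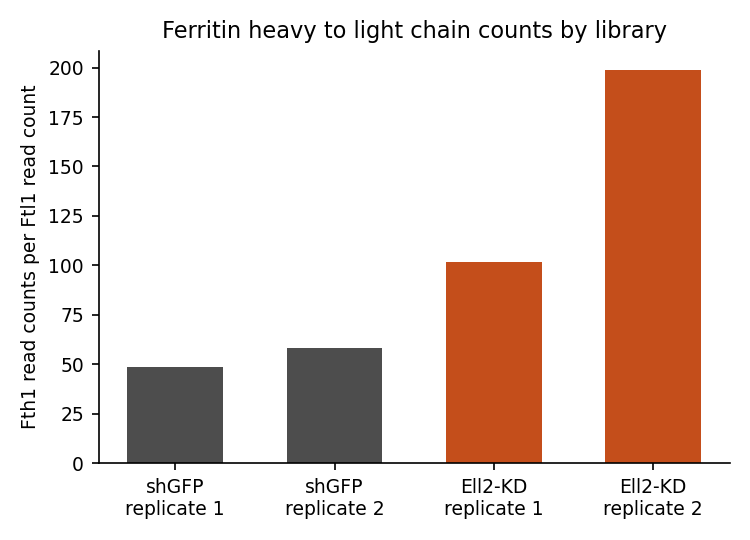
Read counts of Fth1 per read count of Ftl1 in each library (bars from 0; grey shGFP, orange Ell2-KD; 1 value per library, so no error bar). The ratio is 48.4 and 58.3 in the shGFP libraries and 102 and 199 in the Ell2-KD libraries.

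The uptake genes had smaller log2 changes than Cp, Hmox1 or Fth1. Tfrc, the transferrin receptor, stood at 1135 and 958 CPM in shGFP and at 1414 and 1158 CPM in Ell2-KD. The lower Ell2-KD library was barely above the higher control. Its log2 change was 0.30 ± 0.20 (SE), with a 95% interval from -0.14 to 0.74, and it ran from 0.15 to 0.44 with 1 library left out. Slc11a2, the endosomal metal transporter, stood at 50.7 and 56.0 CPM in shGFP and at 41.3 and 40.7 CPM in Ell2-KD. Both Ell2-KD values were below both controls, and its log2 change was -0.38 ± 0.34 (SE), with a 95% interval from -1.13 to 0.37. The intervals of both uptake genes include 0. In the annotation, 402 bases of Slc11a2 exon overlap Gm5475 on the opposite strand, which is not in the tables used here.

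The iron regulatory proteins overlapped between the groups. Ireb2 stood at 440 and 298 CPM in shGFP and at 519 and 392 CPM in Ell2-KD, replicate 1 being the higher in each group. The log2 change was 0.30 ± 0.25 (SE), and it ranged from 0.05 without shGFP replicate 2 to 0.62 without shGFP replicate 1. Aco1, which is also the cytosolic aconitase, stood at 80.0 and 64.1 CPM in shGFP and at 73.4 and 77.3 CPM in Ell2-KD. The Ell2-KD values of Aco1 lay between the controls, and its log2 change was 0.06 ± 0.30 (SE; 95% interval -0.59 to 0.71). The intervals of both genes include 0, and that of Ireb2 ran from -0.25 to 0.86.

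The values are set side by side here by hairpin position. Among the 3 with a 5′ UTR hairpin, the log2 change was 0.83 for Fth1 and -0.65 for Ftl1, and Slc40a1 was too scarce to test. Of the 2 with a 3′ UTR hairpin, Tfrc had 0.30 and Slc11a2 -0.38. Of these 4 intervals only that of Fth1 leaves out 0, so no direction is read for either class. Of the 4 members where no hairpin was found, Hmox1 had -3.87, Cp -1.05, Ireb2 0.30 and Aco1 0.06. Cp was chosen by its p in this comparison, so nothing is read from this class either.

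Other genes of iron, haem, copper and antioxidant metabolism were taken from 7 lists written with results on the whole series known. There were 118 such genes with counts listed, of which 99 were tested, and 0 passed the edgeR test (0.0453% of all genes did). At an unadjusted p under 0.05 there were 14, 7 higher and 7 lower, against 5.82% of all genes. DESeq2 and limma-voom each called 0, where they called 0.39% and 0.0816% of all genes. Over the 99 genes the median log2 change was 0.04. None of the lists below therefore held a gene that changed by this test. Values are given for the genes of highest CPM and for those of largest log2 change. With 1 library left out, 100 to 102 genes were tested. List medians from those fits are over the genes then tested, which need not be the same genes.

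Genes of iron uptake and export were mostly scarce, and 8 of 20 were tested. On the log2 scale 6 of these lay above 0 and 2 below, with a median of 0.18. With 1 Ell2-KD library left out, the genes tested need not be the same 8. Over those then tested, the median was -0.33 without Ell2-KD replicate 1 and -0.40 without Ell2-KD replicate 2. Slc39a14 and Slc39a8, zinc transporters that also carry iron, had the highest CPM: Slc39a14 stood at 47.3 ± 10.8 CPM in shGFP and 68.0 ± 12.4 in Ell2-KD, and Slc39a8 at 11.1 ± 3.61 and 14.6 ± 9.92 (SD, n = 2). Their log2 changes were 0.52 ± 0.34 and 0.42 ± 0.67 (SE), and that of Slc39a14 ran from 0.30 to 0.78 with 1 library left out. The other ferroxidases of the ceruloplasmin family, named here after their values were seen, were scarce: Heph had 3 and 1 counts in shGFP and 6 and 3 in Ell2-KD, and Hephl1 had 22 and 9 and then 4 and 5.

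Of 9 storage and regulation genes tested, 5 had positive and 4 negative log2 changes, from -2.23 to 0.41 with a median of 0.04. With 1 library left out, the median over the list genes then tested was -0.041 and -0.0036 without shGFP replicates 1 and 2. It was -0.072 and -0.11 without Ell2-KD replicates 1 and 2, and the genes then tested need not be the same 9. Both Ell2-KD libraries lay below both controls for 2 of the 9 (18.5% of all genes did so). Pcbp2, an iron chaperone, had a log2 change of 0.04 ± 0.22 (SE). Ncoa4, the receptor that sends ferritin to lysosomes, stood at 22.7 ± 1.80 CPM in shGFP and 30.5 ± 13.2 in Ell2-KD (SD, n = 2; log2 change 0.41 ± 0.47, SE). Fbxl5, which marks Ireb2 for degradation, and its own ligase Herc2 had log2 changes of 0.13 ± 0.23 and 0.11 ± 0.28 (SE), and that of Fbxl5 ran from 0.022 to 0.23 with 1 library left out.

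Of 11 haem synthesis genes tested, 3 lay above 0 on the log2 scale and 8 below, where all genes split into 5502 and 5525. The median was -0.21. Over the list genes tested in each fit, it was -0.46 without Ell2-KD replicate 1 and -0.64 without Ell2-KD replicate 2. Both Ell2-KD libraries lay below both controls for 5 of the 11 (18.5% of all genes did so) and above for 0. Alas1, the rate-limiting first enzyme, stood at 64.1 ± 1.64 CPM in shGFP and 36.9 ± 5.81 in Ell2-KD (SD, n = 2; log2 change -0.79 ± 0.34, SE). Cpox, which acts in the mitochondrial intermembrane space, stood at 82.4 ± 7.39 and 47.7 ± 5.01 CPM (log2 change -0.79 ± 0.31). Ppox, the next enzyme, had 178 and 87 counts in shGFP and 153 and 5 in Ell2-KD, so its log2 change of -1.57 ± 0.80 (SE) rested on Ell2-KD replicate 2. It was -0.82 without that library and -3.70 without Ell2-KD replicate 1, each time from 1 Ell2-KD library. Those of highest CPM were Clpx, a mitochondrial protease subunit that acts on Alas1, with a log2 change of -0.21 ± 0.24, and Alad, with 0.22 ± 0.50. The edgeR adjusted p of the tested genes was 0.796 or more.

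Of 12 tested genes of haem breakdown and transport, 6 had positive and 6 negative log2 changes, from -5.28 to 0.70 with a median of -0.07. Over the list genes tested in each fit, the median was 0.037 and 0.0078 without shGFP replicates 1 and 2. It was -0.12 and 0.018 without Ell2-KD replicates 1 and 2. Hmox2, the constitutive haem oxygenase, stood at 125 ± 30.2 CPM in shGFP and 113 ± 17.7 in Ell2-KD (SD, n = 2), a log2 change of -0.14 ± 0.29 (SE). Its groups overlapped, unlike those of Hmox1. Flvcr1, a haem exporter listed under its older symbol Mfsd7b, stood at 106 ± 21.0 and 172 ± 17.9 CPM (log2 change 0.70 ± 0.27). Pgrmc2, a haem chaperone, stood at 80.2 ± 4.58 and 47.9 ± 11.1 CPM (log2 change -0.74 ± 0.32). Blvra, which reduces the biliverdin that haem oxygenase makes, had a log2 change of 0.32 ± 0.39 (SE). The smallest edgeR adjusted p in the list was 0.782.

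All 29 genes of iron-sulfur cluster assembly were tested. The log2 change was above 0 for 16 and below 0 for 13, with a median of 0.11. Over the list genes tested in each fit, the median was 0.24 and 0.054 without shGFP replicates 1 and 2. It was 0.028 and 0.196 without Ell2-KD replicates 1 and 2. Both Ell2-KD libraries lay above both controls for 9 genes (17.4% of all genes did so) and below for 2. Slc25a37, mitoferrin 1, which carries iron into mitochondria, stood at 27.2 ± 1.15 CPM in shGFP and 64.8 ± 6.83 in Ell2-KD (SD, n = 2), a log2 change of 1.25 ± 0.35 (SE) and the smallest edgeR adjusted p of the 7 lists, 0.553. Fdx1, a ferredoxin, stood at 26.0 ± 13.4 and 68.0 ± 35.1 CPM (log2 change 1.38 ± 0.48), with replicate 2 the higher in each group. The log2 change of Fdx1 was 1.84 without Ell2-KD replicate 1, which leaves 1 Ell2-KD library. Without Ell2-KD replicate 2 it was 0.74, and without shGFP replicate 2 it was 2.02. Hspa9, a mitochondrial chaperone, had a log2 change of 0.11 ± 0.21 (SE).

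**Figure D4:**
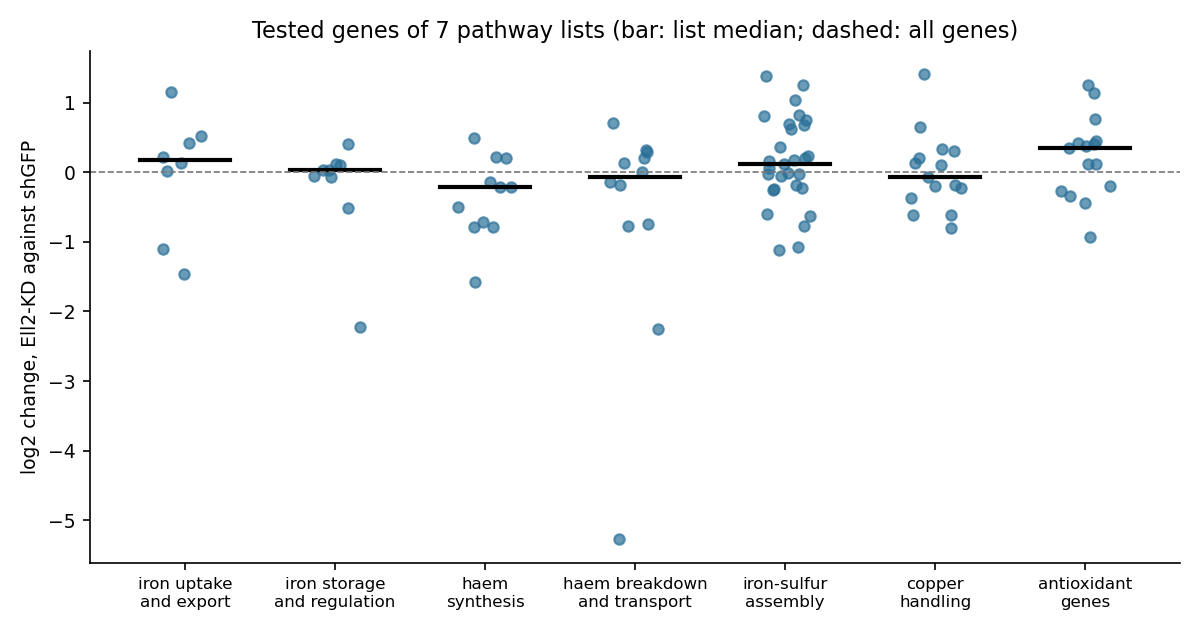
Log2 change (edgeR, Ell2-KD against shGFP) of the tested genes of 7 pathway lists; each point is a gene, black bars are list medians and the dashed line is the median of all genes tested. Medians run from -0.21 for haem synthesis to 0.34 for antioxidant genes, and none of the genes plotted passed the test.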

How the data were processed

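Total RNA from 4 MPC11 libraries was read on a SOLiD sequencer, according to the protocols. For every library the authors deposited raw counts by gene symbol, whole numbers whose totals differ. Named in the submitters' processing notes are the build mm9 and the tools HTSeq 0.5.3, SAMtools 0.1.11 and DESeq 1.4.1. Which aligner, annotation and strand setting were used, and how reads with several matches were treated, is not given in the sources used here.

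The test used edgeR 4.0.16 (R 4.3.3) on the 4 libraries together, fitting group alone (filterByExpr, minimum count 10 and minimum total 15; TMM; robust glmQLFit and glmQLFTest, two-sided; Benjamini-Hochberg over 11027 genes, threshold 0.05). The SE is the log2 change divided by the root of F. CPM are scaled by TMM, and those of marker lists by the library total; changes within a replicate number are differences of log2 CPM with a prior count of 2. The test was tried on simulated counts, the outcome is not reported here, and nothing above rests on it. Alternatives were DESeq2 1.42.0, limma-voom (limma 3.58.1), other scalings and filters, the replicate block and leaving out each library.

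The members and lists were chosen with earlier results of these data known. Genes named are the members, Ell2, genes overlapping a member's exons, the 2 most abundant tested genes of each list, the 3 of largest log2 change among those averaging 10 CPM or more, and the 3 nearest to Cp; some genes that this rule names are not reported here. Other genes given with values are marked or serve as markers or family members. Markers of T and NK cells summed to 0.934 to 4.86 CPM and those of fibroblasts to 3.12 to 12.3 CPM. Exon lengths, overlaps and transcript sequences are from GENCODE M21 (GRCm38), another build than the authors' mm9, whose coordinates were not used.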

Additional observations from a re-analysis of the deposited data

How the results depend on the processing

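Over all genes, 5 passed, and 6 with DESeq2 size factors, 2 with library totals only, 22 without a filter, 2 with at least 5 CPM in 2 libraries, 43 with DESeq2, 9 with limma-voom and 28 with the replicate number as a block; without 1 library the count ran from 14 to 142. Members passing went from 0 to 2 with DESeq2 and to 1 (Cp) with the replicate block, and from 0 to 3 without 1 library, the 3 being Cp, Hmox1 and Fth1 without Ell2-KD replicate 1. Pathway genes passing went from 0 to between 0 and 4 without 1 library (4 without Ell2-KD replicate 1; 1, Slc31a2, without Ell2-KD replicate 2). The replicate numbers are a hint of pairing only: deviations of same-numbered libraries correlated at 0.31 across tested genes, and the labels do not tie them. The block changed no call of a member or pathway gene other than Cp. With 1 library left out, Cp ranged from -1.23 to -0.87 and Hmox1 from -5.52 to -3.33 on the log2 scale, and 12 of 41 named genes changed sign: Aco1 (-0.090 to 0.24), Hps3 (-0.20 to 0.46), Slc39a8 (-0.54 to 0.97), Pcbp2 (-0.072 to 0.15), Ncoa4 (-0.10 to 0.81), Herc2 (-0.15 to 0.35), Alad (-0.65 to 0.79), Hmox2 (-0.37 to 0.15), Blvra (-0.021 to 0.69), Hspa9 (-0.050 to 0.27), Slc31a1 (-0.46 to 0.055) and Slc31a2 (-4.64 to 0.22). The cause was not tested. Averaged over both groups, the order of members by level per kilobase kept its 9 places under library totals, with the longest transcript as length and without each library in turn, though in shGFP alone Hmox1 stood above Slc11a2. The members' median log2 change was 0.10 without a filter, which adds Slc40a1, against -0.16; the shallowest library limits genes of few counts such as Hmox1 and Slc40a1.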

Other observations

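Copper handling genes, of interest beside ceruloplasmin because it needs copper to work, had a median log2 change of -0.07. The median was 0.096 with the replicate block, 0.15 without shGFP replicate 1 and -0.20 without shGFP replicate 2. All 15 were tested, 7 above and 8 below 0 on the log2 scale, and 0 passed in edgeR (0.0453% of all genes did). There was 1 (Sco2) at an unadjusted p under 0.05, against 5.82% of all genes. DESeq2 and limma-voom each called 0 (0.39% and 0.0816% of all genes). Atp7a, the pump that loads copper into secreted enzymes, stood at 241 ± 46.9 CPM in shGFP and 304 ± 15.9 in Ell2-KD (SD, n = 2), a log2 change of 0.34 ± 0.23 (SE) that ran from 0.15 to 0.56 with 1 library left out. Its relative Atp7b, which does this in liver and is named here after its values were seen, had 31 and 8 counts in shGFP and 25 and 14 in Ell2-KD. Slc31a1, the copper importer, had a log2 change of -0.23 ± 0.29, Sco2, a copper chaperone of cytochrome oxidase, of 1.41 ± 0.51, and Mt2, a metallothionein, of 0.65 ± 0.47. That of Mt2 ran from 0.10 to 1.05 with 1 library left out, and it was -0.13 within replicate number 2. Slc31a2, a second copper transporter, had 105 and 66 counts in shGFP and 7 and 51 in Ell2-KD. Its log2 change was -0.80 ± 1.23 (SE). The change was -4.64 without Ell2-KD replicate 2, which sets Ell2-KD replicate 1 alone against the controls, and 0.22 without Ell2-KD replicate 1.

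The antioxidant list holds genes that respond to NRF2, as Hmox1 and the ferritins are known to do. It also holds Nfe2l2, which encodes NRF2, its repressor Keap1 and its partner Mafg. Of the 16 genes 15 were tested. On the log2 scale 10 lay above 0 and 5 below, with a median of 0.34 that was 0.18 without shGFP replicate 2. Taken pair by pair, the list's median difference of log2 CPM came to 0.0062 for the libraries numbered 1 and 0.23 for those numbered 2. In this list 0 passed in edgeR (0.0453% of all genes did), with 3 at an unadjusted p under 0.05 (5.82% of all genes). DESeq2 and limma-voom each called 0 (0.39% and 0.0816% of all genes). Both Ell2-KD libraries lay above both controls for 6 genes (17.4% of all genes did so) and below for 1. Txnrd1, thioredoxin reductase, stood at 452 ± 56.1 CPM in shGFP and 766 ± 174 in Ell2-KD (SD, n = 2; log2 change 0.76 ± 0.23, SE), and Prdx1, a peroxiredoxin, at 535 ± 36.6 and 712 ± 89.6 CPM (0.41 ± 0.20). Me1, malic enzyme, had a log2 change of 1.25 ± 0.42 and Gpx4, the lipid peroxidase that guards against ferroptosis, of 1.14 ± 0.53. Slc7a11, the cystine importer, lay the other way, at 67.8 ± 6.53 and 35.4 ± 16.5 CPM (-0.92 ± 0.39), and at a log2 change of -1.51 without Ell2-KD replicate 1 and -0.52 without Ell2-KD replicate 2. Without Ell2-KD replicate 1, which leaves 1 Ell2-KD library, the log2 changes of Txnrd1 and Me1 were 0.98 and 1.62. Without Ell2-KD replicate 2 the log2 change of Me1 was 0.80. Hmox1, at a log2 change of -3.87, stood on the opposite side of most genes in this list.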
